A study of Mus musculus with 6 samples.

Results

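The granule cells of the dentate gyrus (DG) were followed through 10 genes that mark them, Prox1, Calb1, Dsp, C1ql2, Tdo2, Lct, Stxbp6, Pdzd2, Trpc6 and Btg1, in bulk RNA-seq of the dorsal hippocampus. The markers were taken by symbol and matched to Ensembl identifiers through GENCODE M21. They make up 10 of the 55401 genes in the count files. All 10 had enough counts to be tested. The 6 samples came from WT mice, of which 3 received Control-ASO and the other 3 Snhg11-ASO. An ASO is a short modified nucleic acid, designed to bind 1 RNA and have RNase H cut it. Snhg11-ASO pairs with the long non-coding RNA Snhg11, and Control-ASO is a shuffled sequence of equal base content. Both groups consisted of male WT littermates of the Ts65Dn line, aged 4 months, which received 50 μg of ASO in the DG of each hemisphere and were killed 3 days later. Every sample is the whole dorsal part of the hippocampus and not dissected DG, and no uninjected tissue or purified granule cells stand beside the 6 samples. In such tissue, fewer granule cells and less RNA per granule cell cannot be told apart.

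Granule cells are the principal neurons of the DG. They receive the perforant path from the entorhinal cortex and send mossy fibre axons to CA3 and to the mossy cells of the hilus, and new granule cells are added in the adult. Prox1 is the homeobox factor that sets and keeps granule cell fate. The other markers encode a calcium buffer (Calb1), a secreted synaptic protein of mossy fibres (C1ql2), a SNARE-binding protein (Stxbp6), a cation channel (Trpc6), a desmosome protein (Dsp), a protein with many PDZ domains (Pdzd2), a pair of metabolic enzymes (Lct and Tdo2) and an antiproliferative cofactor (Btg1). Several of them are not confined to granule cells. Calb1 is also made by CA1 pyramidal cells and interneurons, Prox1 by some interneurons, and Btg1 by many cell types.

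The deposited counts on genes summed to 28951250, 34293344 and 33079848 read pairs in Control-ASO replicates 1 to 3. In Snhg11-ASO replicates 1 to 3 they summed to 38556524, 41868810 and 43997537, so every Snhg11-ASO sample was sequenced deeper than every Control-ASO sample. Snhg11 itself was counted at 551, 436 and 209 CPM (read counts normalised to library size with TMM factors) in replicates 1 to 3 of Control-ASO. In replicates 1 to 3 of Snhg11-ASO it stood at 139, 65.4 and 69.4 CPM. The groups did not overlap, and the log2 fold change was -2.13 ± 0.43 (SE), with a Benjamini-Hochberg adjusted p = 0.395 in edgeR (quasi-likelihood test) and 5.3e-05 in DESeq2. Snhg11-ASO replicate 1 stood apart from the other libraries. It correlated with them across genes at Spearman 0.955 to 0.959, against 0.979 to 0.991 for all other pairs, and it was the highest or the lowest of the 6 samples in 65.8% of the 19969 genes tested, whereas this share was 32.5%, 24.1% and 29.3% for Control-ASO replicates 1 to 3 and 20.1% and 28.2% for Snhg11-ASO replicates 2 and 3. The study's methods describe leaving out a Snhg11-ASO sample as an outlier, without naming it. All deposited samples are kept in the main values here, and the markers are given also without Snhg11-ASO replicate 1. Choroid plexus genes, which mark tissue that clings to the dissected hippocampus, summed to 1899 and 1232 CPM in Control-ASO replicates 1 and 3 and to 1301 CPM in Snhg11-ASO replicate 1, but to 36.5, 125 and 68.2 CPM in Control-ASO replicate 2 and Snhg11-ASO replicates 2 and 3.

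All 10 markers were present in every sample. Levels were compared between genes as CPM per kilobase of merged exon. In Control-ASO samples this level was highest for Calb1 (14.0 ± 4.43, SD, n = 3), Stxbp6 (14.0 ± 2.08), C1ql2 (13.2 ± 3.23) and Prox1 (11.7 ± 1.70), and neighbours in this order overlapped in their ranges. Trpc6 (8.53 ± 0.849), Lct (8.18 ± 2.70) and Dsp (6.18 ± 1.02) came next and again overlapped with their neighbours, and the highest Trpc6 value, 9.51, lay below the lowest Prox1 value, 9.79. Btg1 (3.73 ± 0.337) and Pdzd2 (3.58 ± 0.698) followed, overlapping with each other and lying below Dsp. Tdo2 was lowest, at 0.771 ± 0.0995, and was counted in 77 to 142 read pairs per sample, against at least 604 for each other marker. In Snhg11-ASO replicates 2 and 3 the same 4 genes held the first 4 places and Btg1, Pdzd2 and Tdo2 the last 3. In Snhg11-ASO replicate 1 the order differed: Prox1 was first (19.9 CPM per kilobase), Btg1 moved to the second place (11.9), and Lct to the ninth (3.23).

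The comparison of Snhg11-ASO with Control-ASO asked whether these markers differ when Snhg11 is targeted. None of the 10 passed an adjusted p of 0.05 in edgeR, where the share called among all genes tested was 0%, and none did in DESeq2, where it was 1.28%. An unadjusted p under 0.05 was reached by 0 of 10 markers in edgeR, against 8.11% of all genes tested (4.43% lower and 3.68% higher in Snhg11-ASO). With the replicate number as a block, 1 of 10 markers reached it, Prox1, against 8.59% of all genes. The groups overlapped for all 10, against 15.4% of all genes whose groups did not overlap. In the log2 fold change, 6 markers were below 0 and 4 above, with a median of -0.01, beside 48.3% of all genes below 0 and a median of 0.01 over all genes. The design allows no exact permutation p below 0.1 with 3 mice against 3. Since no difference passed, each is given below with the 95% interval of its fold change, which shows how large a difference these samples leave possible.

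**Figure D1:**
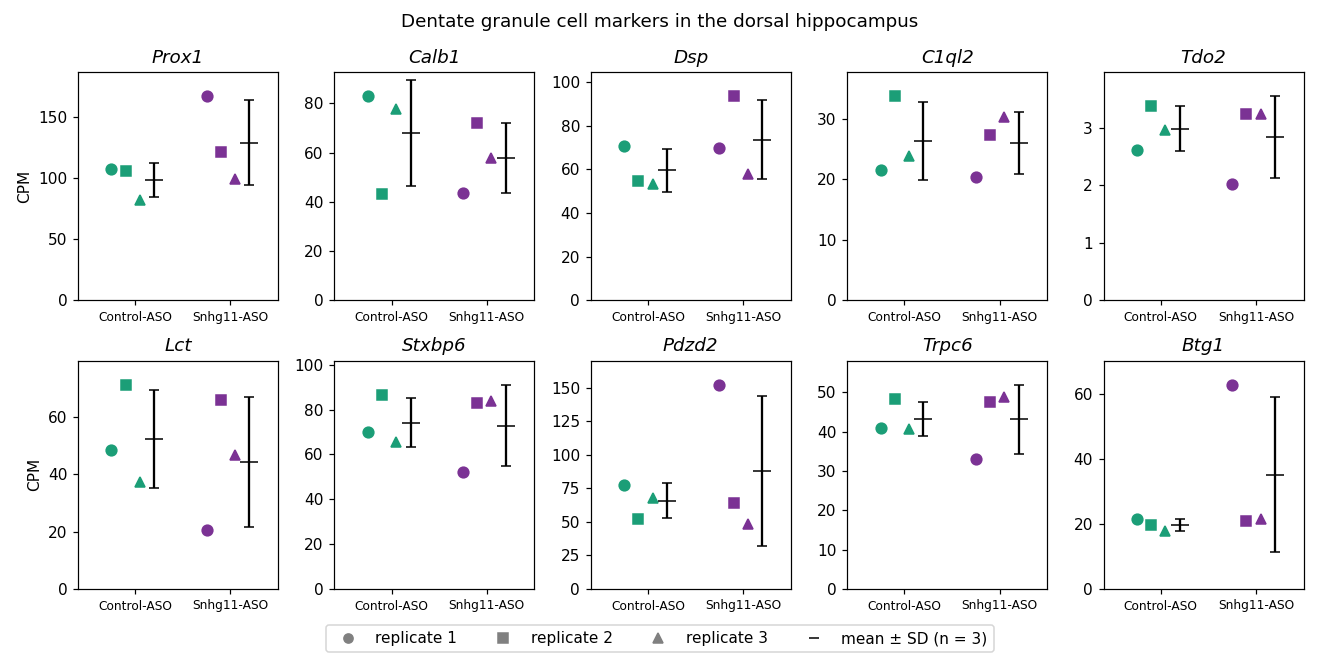
Level of each dentate granule cell marker (CPM, y axis starting at 0) in the 3 Control-ASO samples (green) and the 3 Snhg11-ASO samples (purple), with the symbol giving the replicate and the mean ± SD in black. The groups overlap for all 10 markers, and Snhg11-ASO replicate 1 (circle) is the lowest or the highest sample for 8 of them.

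Prox1 (ENSMUSG00000010175; GRCm38 chromosome 1, 190118035 to 190170714, minus strand), the fate-setting factor, was measured at 108, 106 and 82.1 CPM in Control-ASO replicates 1 to 3. The values in Snhg11-ASO were 167, 122 and 99.1 CPM. The first 2 of these lay above every Control-ASO sample and the third among them. The mean was 98.5 ± 14.3 (SD, n = 3) in Control-ASO and 129 ± 34.8 (SD, n = 3) in Snhg11-ASO, a log2 fold change of 0.39 ± 0.21 (SE, edgeR adjusted p = 0.678, two-sided exact permutation p = 0.3). The 95% interval of the fold change ran from 0.937 to 1.84. Prox1 was higher in Snhg11-ASO in all 3 pairs of same-numbered samples. The labels do not state such a pairing, which was inferred from these data and is uncertain. The replicate block gave a log2 fold change of 0.37 ± 0.12 (SE, edgeR adjusted p = 0.512, unadjusted p = 0.0215). Without Snhg11-ASO replicate 1 the log2 fold change was 0.16.

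Among the markers of calcium handling and of the synapse, Calb1 (ENSMUSG00000028222; chromosome 4, 15881264 to 15908064, plus strand), which encodes calbindin, had 82.9, 43.3 and 77.7 CPM in Control-ASO and 43.7, 72.1 and 57.7 CPM in Snhg11-ASO. Control-ASO replicate 2 and Snhg11-ASO replicate 1 had the lowest levels and were nearly equal, and the widest gap was inside the Control-ASO group. The log2 fold change was -0.23 ± 0.28 (SE, edgeR adjusted p = 0.845), with a fold change between 0.540 and 1.34 at 95%, and it was -0.07 without Snhg11-ASO replicate 1. Leaving out Control-ASO replicate 2 instead gave -0.47. C1ql2 (ENSMUSG00000036907; chromosome 1, 120340582 to 120343174, plus strand), released from mossy fibre terminals, had 21.6, 33.8 and 23.9 CPM in Control-ASO and 20.4, 27.4 and 30.4 CPM in Snhg11-ASO. Its group means were nearly equal, at 26.4 ± 6.46 and 26.0 ± 5.15 (SD, n = 3 each), with a log2 fold change of -0.02 ± 0.22 (SE, edgeR adjusted p = 0.987) and an interval of the fold change from 0.690 to 1.41. The direction turned without Snhg11-ASO replicate 1, to 0.13, when Control-ASO replicate 2 was left out, to 0.20, and with the offset for genomic span, to 0.0080.

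Stxbp6 (ENSMUSG00000046314; chromosome 12, 44852484 to 45074709, minus strand), also called amisyn and known to bind SNARE proteins, had 70.0, 86.6 and 65.7 CPM in Control-ASO and 51.98, 82.8 and 83.8 CPM in Snhg11-ASO. Trpc6 (ENSMUSG00000031997; chromosome 9, 8544142 to 8680741, plus strand), a cation channel of the plasma membrane gated by diacylglycerol, had 40.9, 48.2 and 40.6 CPM in Control-ASO and 33.0, 47.6 and 48.7 CPM in Snhg11-ASO. In both genes Snhg11-ASO replicate 1 was the lowest of all samples, and Snhg11-ASO replicates 2 and 3 lay close to Control-ASO replicate 2. The log2 fold changes were -0.02 ± 0.20 (SE) for Stxbp6 and -0.004 ± 0.17 (SE) for Trpc6, with adjusted p = 0.982 and 0.996 in edgeR. Trpc6 gave the narrowest interval of the 10 markers, a fold change of 0.757 to 1.31, and that of Stxbp6 was 0.704 to 1.37. Both directions turned without Snhg11-ASO replicate 1, to 0.17 for Stxbp6 and 0.16 for Trpc6, when Control-ASO replicate 2 was left out, to 0.10 and 0.08, and after removal of each sample's trend with genomic span, to 0.09 and 0.06.

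Of the structural markers, Dsp (ENSMUSG00000054889; chromosome 13, 38151294 to 38198577, plus strand), which encodes desmoplakin, had 71.0, 54.8 and 53.2 CPM in Control-ASO. The Snhg11-ASO samples had 69.6, 93.6 and 57.9 CPM, of which only replicate 2 lay above the Control-ASO range. The log2 fold change was 0.30 ± 0.20 (SE, edgeR adjusted p = 0.729), with an interval of the fold change from 0.892 to 1.71, and it was 0.34 without Snhg11-ASO replicate 1 and 0.09 without Snhg11-ASO replicate 2. Dsp was the 1 marker of the 10 in which Snhg11-ASO replicate 1 was not the Snhg11-ASO sample farthest from the Control-ASO mean. Pdzd2 (ENSMUSG00000022197; chromosome 15, 12359711 to 12739924, minus strand), spanning 380 kb and the longest of the markers, had 77.7, 52.2 and 67.6 CPM in Control-ASO and 152, 64.0 and 48.1 CPM in Snhg11-ASO. The high mean of Snhg11-ASO, 88.0 ± 56.0 (SD, n = 3) against 65.8 ± 12.9 in Control-ASO, rested on replicate 1. The log2 fold change was 0.42 ± 0.41 (SE, edgeR adjusted p = 0.816) with all samples and -0.23 without that library, and the interval of the fold change with all samples was 0.677 to 2.64.

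Lct (ENSMUSG00000026354; chromosome 1, 128284756 to 128328318, minus strand) encodes lactase, the brush border enzyme of the intestine, and its transcript is enriched in granule cells. It had 48.6, 71.3 and 37.3 CPM in Control-ASO and 20.7, 66.0 and 46.8 CPM in Snhg11-ASO. Replicates 2 and 3 of Snhg11-ASO lay within the Control-ASO range, whereas replicate 1 had 0.395 of the Control-ASO mean. The log2 fold change was -0.24 ± 0.42 (SE, edgeR adjusted p = 0.898), with an interval of the fold change from 0.427 to 1.69. It was 0.11 without that library and 0.05 when Control-ASO replicate 2 was left out. Tdo2 (ENSMUSG00000028011; chromosome 3, 81957090 to 81976202, minus strand), the tryptophan dioxygenase that opens the kynurenine pathway, had 2.62, 3.39 and 2.97 CPM in Control-ASO and 2.02, 3.25 and 3.25 CPM in Snhg11-ASO. Its log2 fold change was -0.07 ± 0.26 (SE, edgeR adjusted p = 0.956), with an interval of the fold change from 0.619 to 1.46. It was 0.12 without Snhg11-ASO replicate 1, 0.03 when Control-ASO replicate 2 was left out and 0.0018 with counts of both strands. Between 13.5% and 32.5% of the read pairs at Tdo2 fell on the opposite strand, against at most 3.85% in any sample for the other 9 markers.

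Btg1 (ENSMUSG00000036478; chromosome 10, 96617006 to 96622809, plus strand), a cofactor that restrains proliferation and promotes removal of mRNA tails, showed the largest log2 fold change of the markers. It had 21.5, 19.6 and 17.9 CPM in Control-ASO and 62.9, 21.1 and 21.6 CPM in Snhg11-ASO. Its Control-ASO samples were the most alike of any marker, with a coefficient of variation of 9.03%, and Snhg11-ASO replicate 1 had 3.20 times their mean. The log2 fold change was 0.84 ± 0.43 (SE, edgeR adjusted p = 0.670, exact permutation p = 0.2), with an interval of the fold change from 0.888 to 3.60. Without Snhg11-ASO replicate 1 it was 0.12, with both remaining samples at 1.07 and 1.10 times the Control-ASO mean.

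Proximal promoters are shown for Btg1, Lct and Pdzd2, the 3 markers that lay farthest from the Control-ASO mean in Snhg11-ASO replicate 1. Each sequence is from RefSeq on GRCm38.p6, 5′ to 3′ on the strand of the gene, and covers the 250 bases before the start, at chr10:96616751-96617000 (plus strand), chr1:128328319-128328568 (minus strand) and chr15:12739893-12740142 (minus strand). Capitals mark the letters CANNTG (the E-box core bound by basic helix-loop-helix factors) and TATAAA on either strand, and no marked stretches overlap.
Btg1: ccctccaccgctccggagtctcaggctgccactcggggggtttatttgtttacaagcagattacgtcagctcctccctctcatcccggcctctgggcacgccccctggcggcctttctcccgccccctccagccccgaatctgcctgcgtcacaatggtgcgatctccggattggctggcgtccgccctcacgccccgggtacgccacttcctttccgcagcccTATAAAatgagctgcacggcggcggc
Lct: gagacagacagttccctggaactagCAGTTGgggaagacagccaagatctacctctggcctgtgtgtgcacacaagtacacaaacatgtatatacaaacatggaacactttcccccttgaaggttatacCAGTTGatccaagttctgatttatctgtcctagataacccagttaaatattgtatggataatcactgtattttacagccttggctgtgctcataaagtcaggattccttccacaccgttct
Pdzd2: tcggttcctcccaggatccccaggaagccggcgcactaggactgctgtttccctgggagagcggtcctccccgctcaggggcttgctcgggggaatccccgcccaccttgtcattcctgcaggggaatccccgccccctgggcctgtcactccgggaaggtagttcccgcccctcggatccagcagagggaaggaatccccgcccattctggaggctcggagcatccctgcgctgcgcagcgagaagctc
The Btg1 window held TATAAA 1 time and CANNTG 0 times, the Lct window CANNTG 2 times and TATAAA 0 times, and the Pdzd2 window neither. Of all 32851 promoters in the table, 66.2% held CANNTG and 12.4% TATAAA in a window of this length, so the matches are a description only. In base composition the windows differed. Lct had a GC content of 42.8% with 1 CpG, whereas Btg1 had 65.2% with 21 CpGs and Pdzd2 67.2% with 16, beside medians of 52.4% and 6 over all promoters. Promoters were found for 9 of the 10 markers, the exception being Calb1.

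**Figure D2:**
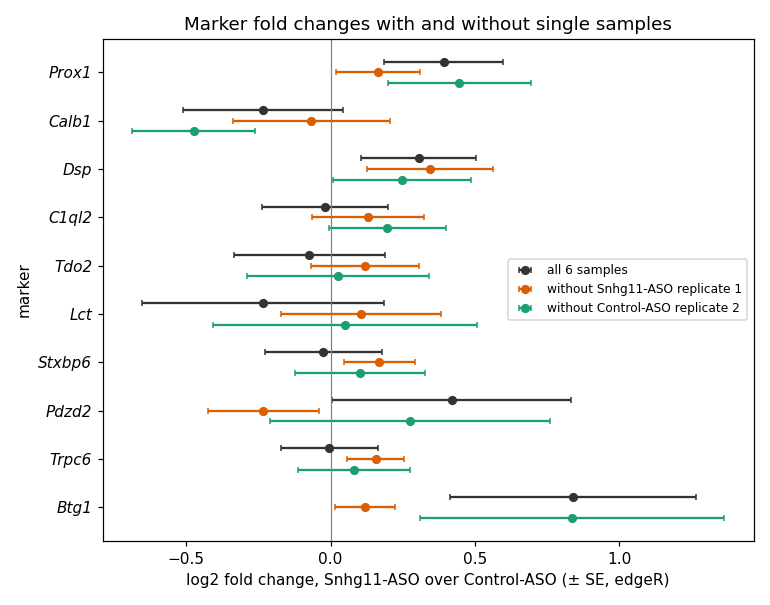
Log2 fold change of each marker in Snhg11-ASO over Control-ASO (x axis, points with ± SE from edgeR's quasi-likelihood fit) with all 6 samples, after leaving out Snhg11-ASO replicate 1 and after leaving out Control-ASO replicate 2. Btg1 moves from 0.84 to 0.12 and Pdzd2 from 0.42 to -0.23 when Snhg11-ASO replicate 1 is left out.

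Read across samples, the markers did not shift as a block. In Snhg11-ASO replicate 1 they split: 3 markers (Prox1, Pdzd2 and Btg1) lay above the Control-ASO range, 5 (C1ql2, Tdo2, Lct, Stxbp6 and Trpc6) lay below it and 2 (Calb1 and Dsp) inside it. The deviations from the Control-ASO mean of log2 CPM ran from -1.29 for Lct to 1.68 for Btg1. This library was the highest or lowest of the 6 for 8 of the 10 markers, beside 65.8% of all genes tested, so a high share was not particular to the markers. In Snhg11-ASO replicate 2, 8 markers lay inside the Control-ASO range and 2 above it, and in replicate 3, 7 lay inside, 2 above and 1 below. The median deviation of the 10 markers was -0.37, 0.14 and 0.07 in Snhg11-ASO replicates 1 to 3 and 0.04, 0.14 and -0.12 in Control-ASO replicates 1 to 3. Leaving out 1 library changed the balance of directions: without Snhg11-ASO replicate 1, 2 markers were lower and 8 higher in Snhg11-ASO, and without Control-ASO replicate 2, 1 was lower and 9 higher, while without any of the other 4 samples it stayed at 6 lower and 4 higher. The offset for genomic span gave 3 lower and 7 higher.

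**Figure D3:**
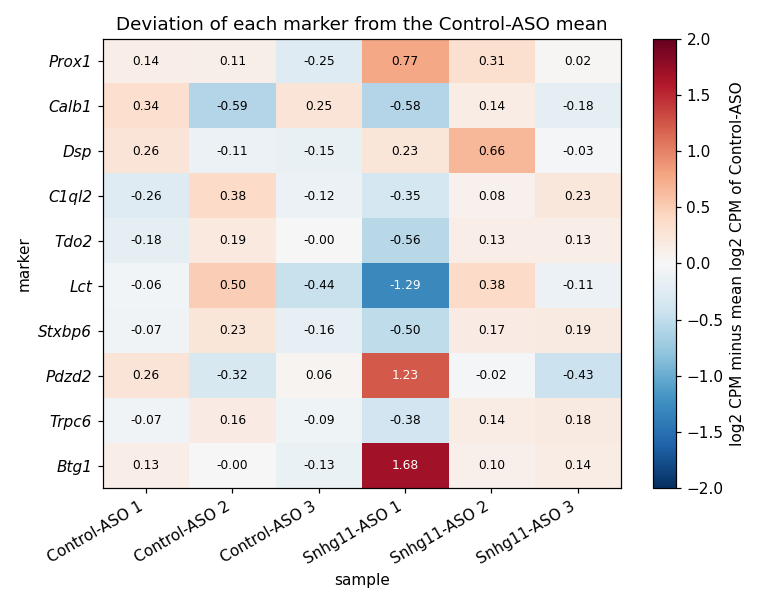
Log2 CPM of each marker (rows) in each sample (columns) minus the mean log2 CPM of the 3 Control-ASO samples, printed in each cell and coloured from blue (below) to red (above). The column of Snhg11-ASO replicate 1 holds both the lowest value, -1.29 for Lct, and the highest, 1.68 for Btg1.

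Several markers varied with the choroid plexus genes. The 3 libraries with much choroid plexus signal (summed level 1232 to 1899 CPM) were the 3 lowest for 4 markers, C1ql2, Tdo2, Stxbp6 and Trpc6, and the 3 highest for 1, Pdzd2. C1ql2, for instance, lay between 20.4 and 23.9 CPM in those 3 libraries, and between 27.4 and 33.8 CPM in the 3 others (summed choroid level 36.5 to 125 CPM). Over all genes tested these 3 libraries were the 3 lowest in 8.86% and the 3 highest in 7.75%. They include 2 Control-ASO samples and 1 Snhg11-ASO sample, namely the one that stood apart. With the choroid plexus level as a term in edgeR, a fit added after the values were seen, the log2 fold changes were -0.13 for C1ql2, -0.19 for Tdo2, -0.14 for Stxbp6, -0.09 for Trpc6 and 0.47 for Pdzd2. Those of the other markers were 0.41 for Prox1, -0.11 for Calb1, 0.33 for Dsp, -0.49 for Lct and 0.82 for Btg1. Against the fit without the term, Calb1 moved toward 0, and Lct, C1ql2, Tdo2, Stxbp6 and Trpc6 moved further below it. Prox1, Dsp, Pdzd2 and Btg1 moved less. The median over the markers was -0.01 without the term and -0.10 with it. In the fit with the term none of the 10 markers had an adjusted p under 0.05. Among the 3 libraries with little choroid signal, Btg1 had 19.6 CPM in Control-ASO replicate 2 and 21.1 and 21.6 CPM in the Snhg11-ASO samples, and Prox1 had 106 against 122 and 99.1 CPM.

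The other genes known from granule cells gave a similar account. A list of 18 further genes had 9 lower and 9 higher in Snhg11-ASO, with a median log2 fold change of -0.01. None had an adjusted p under 0.05, 1 had an unadjusted p under 0.05, beside 8.11% of all genes, and the groups did not overlap for that 1 gene, beside 15.4%. It was Gsg1l, which encodes an auxiliary subunit of AMPA receptors, with 12.5, 11.7 and 16.7 CPM in Control-ASO and 8.73, 8.47 and 9.83 CPM in Snhg11-ASO. Every Snhg11-ASO value was under every Control-ASO value, and the log2 fold change was -0.60 ± 0.18 (SE, edgeR adjusted p = 0.512, exact permutation p = 0.1). Snhg11-ASO replicate 1 was not apart from the other 2 Snhg11-ASO samples in Gsg1l. The summed level of these 18 genes was 1505 to 1693 CPM in Control-ASO and 1508 to 1733 CPM in Snhg11-ASO, and that of the 10 markers 469 to 545 and 497 to 624 CPM.

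Genes of the other cells in or near the DG were read beside the markers. For mossy cells, 1 of 6 genes was lower and 5 were higher, with summed levels of 99.4 to 119 CPM in Control-ASO and 117 to 234 CPM in Snhg11-ASO. The highest sum was that of Snhg11-ASO replicate 1, in which Tm4sf1, a tetraspanin-like membrane protein also found in endothelium, stood at 95.8 CPM against 6.71 to 17.6 CPM in the other 5 samples. For immature granule neurons, 8 of 10 genes could be tested, 4 lower and 4 higher. The groups did not overlap for 3 of the 8, beside 15.4% of all genes, and these were Sox4, Dcx and Stmn1, of which the last 2 were chosen after their values were seen. Sox4, a factor of early neuronal differentiation, had 14.8, 13.6 and 11.9 CPM in Control-ASO and 48.3, 14.9 and 16.7 CPM in Snhg11-ASO. As in Btg1, a single library was far above the other 5, and the log2 fold change of Sox4 was 0.99 with all samples and 0.24 without Snhg11-ASO replicate 1. Dcx, which encodes doublecortin, a microtubule protein of migrating neurons, had 24.4, 18.7 and 29.7 CPM in Control-ASO, whereas Snhg11-ASO had 15.1, 17.9 and 17.5 CPM (log2 fold change -0.53 ± 0.18, SE, edgeR adjusted p = 0.561). Stmn1, which encodes the tubulin-binding protein stathmin, had 43.1, 43.4 and 75.5 CPM, whereas Snhg11-ASO had 20.1, 35.9 and 42.1 CPM (log2 fold change -0.72 ± 0.33, SE, edgeR adjusted p = 0.633). Both were lower in every Snhg11-ASO sample than in any Control-ASO sample, and neither passed. Leaving out each sample in turn gave -0.68 to -0.36 for Dcx and -0.95 to -0.40 for Stmn1. Each was smallest in size without Control-ASO replicate 3. Of the 8 genes of this list, 1 had an unadjusted p under 0.05 in edgeR, beside 8.11% of all genes.

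Markers of the pyramidal fields overlapped between the groups in their summed levels. For CA1 they were 729 to 870 CPM in Control-ASO and 752 to 785 in Snhg11-ASO, with 4 of 8 genes lower. For CA2, 1 of 7 genes was lower (136 to 204 against 194 to 212 CPM), and for CA3, 2 of 6 (161 to 225 against 187 to 237 CPM). In 2 of all the lists read here the sums did not overlap. With 3 mice against 3, such a separation of a single list allows no exact permutation p below 0.1. The sums were not tested, and how often those of other gene sets separate was not computed. Interneuron genes summed to 577 to 644 CPM in Control-ASO and 457 to 535 CPM in Snhg11-ASO, with 8 of 9 lower and a median log2 fold change of -0.26, Gad1, the GABA-synthesising enzyme, among them at 219, 187 and 192 against 179, 162 and 177 CPM. The groups did not overlap for 4 of the 9 interneuron genes, beside 15.4% of all genes. In edgeR 3 of the 9 had an unadjusted p under 0.05, all lower, beside 8.11% of all genes. Thalamic genes summed to 59.3 to 70.8 and 81.0 to 90.0 CPM, with 4 of 5 higher and 1 of 5 without overlap between the groups. The largest log2 fold change among them was that of Prkcd, a protein kinase C, at 19.2, 21.4 and 17.6 CPM against 31.2, 35.0 and 32.5 CPM (log2 fold change 0.76, adjusted p = 0.304 from edgeR and 1.3e-05 from DESeq2). None of the genes in these lists passed in edgeR, where 0% of all genes tested did, and their part in the marker values was not tested.

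General neuronal genes were lower in 6 of 7 cases. Their summed level was 4951 to 5269 CPM in Control-ASO and 4254 to 5142 CPM in Snhg11-ASO. The groups did not overlap for 2 of the 7, beside 15.4% of all genes. In edgeR 2 of the 7 had an unadjusted p under 0.05, both lower, beside 8.11% of all genes. Snhg11-ASO replicate 1 was the lowest sample for 5 of the 7. It was also the lowest sample for 5 of 7 astrocyte genes (summed level 4746 to 6994 against 4173 to 7033 CPM), 5 of 6 microglial genes (274 to 512 against 177 to 542 CPM) and 5 of 7 oligodendrocyte genes (1599 to 2949 against 1664 to 3640 CPM). Snhg11-ASO replicate 1 was the highest or lowest sample in 65.8% of all genes, and the share for lowest alone was not computed. All 7 oligodendrocyte genes had a log2 fold change above 0, with a median of 0.30, and their lowest sum was in Control-ASO replicate 1. Endothelial genes summed to 118 to 146 and 120 to 141 CPM. Of the 7 choroid plexus genes all were lower in Snhg11-ASO, with Ttr, the transthyretin gene, at 1752, 12.9 and 1126 CPM in Control-ASO and 1192, 85.4 and 37.7 CPM in Snhg11-ASO, and each of the 7 genes was counted in at least 5 read pairs in every sample. The low sums of neuronal, astrocyte and microglial genes in Snhg11-ASO replicate 1 thus stood beside low C1ql2, Tdo2, Lct, Stxbp6 and Trpc6 and high Prox1, Pdzd2 and Btg1 in the same library. Beyond the fit with the choroid plexus level, the part of tissue composition or RNA quality in this was not tested.

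**Figure D4:**
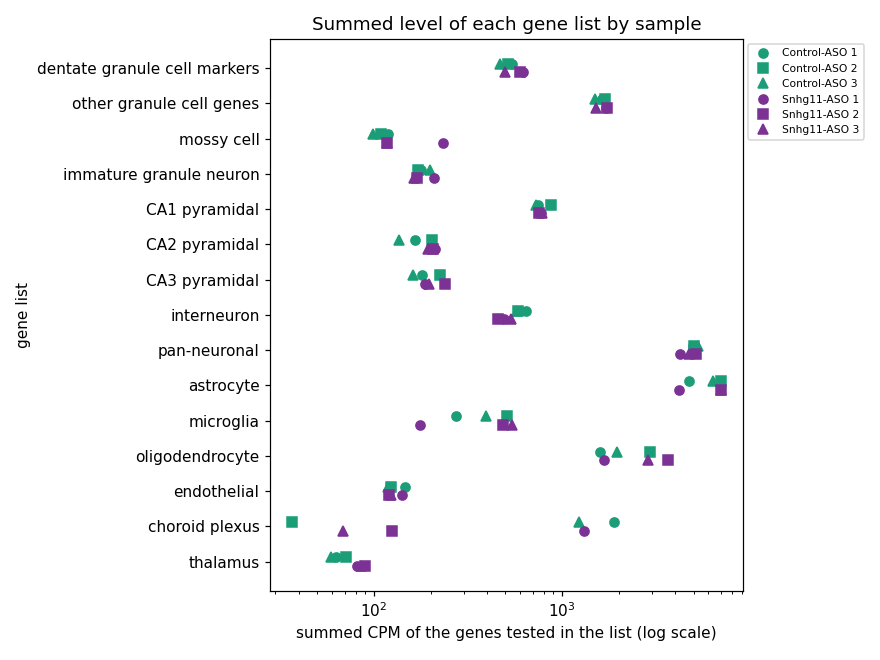
Summed CPM of the tested genes of each list (x axis, log scale) in the 3 Control-ASO samples (green) and the 3 Snhg11-ASO samples (purple), with the symbol giving the replicate. The dentate granule cell markers sum to 469 to 545 CPM and 497 to 624 CPM, while choroid plexus genes range from 36.5 to 1899 CPM across the samples.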

How the data were processed

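RNA-seq of 6 samples of WT dorsal hippocampus, 3 Control-ASO and 3 Snhg11-ASO by their titles, was used. The authors aligned the read pairs to mm10 (GRCm38) with STAR 2.5.2a and deposited raw counts per gene, unnormalized and unpooled. The study's methods name Rsubread for quantification, while the deposited counts have the layout of STAR. STAR discards pairs that map to several places or to exons of more than 1 gene. Lines that name no gene held 43.5% to 51.4% of the pairs and were left out. Counts of the strand that the library kit predicts were used, with 96.2% to 96.8% of the strand-resolved pairs. GENCODE M21 named 55141 of 55401 identifiers. Exons of Prox1 overlap the antisense gene Prox1os over 1.59% of their length and those of Dsp the gene Gm10129 over 5.17%, both on the opposite strand.

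After filterByExpr (minimum count 10), 19969 genes were scaled with TMM factors and compared with edgeR's quasi-likelihood test (edgeR 4.0.16, R 4.3.3, Benjamini-Hochberg adjustment at 0.05 over all genes tested). Standard errors are the size of the log2 fold change over the square root of F, and the 95% intervals use 6.99 degrees of freedom. On simulated counts with 200 of 19969 genes changed by a log2 fold of 2, edgeR recovered 71.5% with 5 calls among the others, and DESeq2 83% with 65. The simulated counts held no library set apart as Snhg11-ASO replicate 1 was. This recovery therefore need not hold for the data, in which edgeR called 0 of 19969 genes. Same-numbered samples of both groups deviated together from their group means (correlations 0.297, 0.179 and 0.103 across genes), so numbers were treated as pairing the samples, from this check alone. Control-ASO replicate 2 correlated slightly more with Snhg11-ASO replicate 3, at 0.188, than with its own number. Replicates 1 of both groups also shared a high choroid plexus level and replicates 2 a low one. The part of that level in these correlations was not tested. The pairing is therefore uncertain, and a replicate block was an alternative. Whether a sample is 1 mouse is stated by the methods and not by the labels.

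The markers and lists were chosen with earlier results of these data known. Genes outside the markers were named by rule: further granule cell genes with an unadjusted p under 0.05 or groups that do not overlap, and in each other list the gene of highest mean or of largest log2 fold change. The rule allows 27 genes, of which 6 are named, and 1 result is not reported here. Dcx and Stmn1 were added after their values were seen. Alternatives were DESeq2 1.42.0, limma-voom (limma 3.58.1), other scalings and filters, both strands, the block, an offset for genomic span and leaving out each sample.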

Additional observations from a re-analysis of the deposited data

How the results depend on the processing

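None of the 10 markers had an adjusted p under 0.05 in any of the 20 alternatives. Prox1, Dsp and Btg1 stayed above 0 and Calb1 below 0 in all of them. The other 6 turned direction in at least 1 alternative. Leaving out each sample in turn gave ranges of -0.15 to 0.20 for C1ql2, -0.18 to 0.12 for Tdo2, -0.63 to 0.11 for Lct, -0.14 to 0.17 for Stxbp6, -0.23 to 0.71 for Pdzd2 and -0.10 to 0.16 for Trpc6, and the turns came without Snhg11-ASO replicate 1 or, except for Pdzd2, without Control-ASO replicate 2. DESeq2 without Snhg11-ASO replicate 1 gave 0.13 for C1ql2, 0.12 for Tdo2, 0.10 for Lct, 0.17 for Stxbp6, -0.24 for Pdzd2 and 0.15 for Trpc6. An offset for genomic span gave 0.0080 for C1ql2, 0.086 for Stxbp6 and 0.060 for Trpc6, and with the replicate block 0.019, 0.059 and 0.040. Counts of both strands gave 0.0018 for Tdo2, and the choroid plexus term, chosen after seeing the data, 0.29 for Ttr; the cause of these turns was not tested. The number of genes called was 0 in edgeR and in limma-voom, and 2 in edgeR without Snhg11-ASO replicate 1 (0 without any other sample). DESeq2 called 256, and 339, 275 and 213 without Snhg11-ASO replicates 1, 2 and 3. Snhg11 itself passed only in DESeq2, at -2.12 with all samples and at -2.57, -1.94 and -1.96 without those replicates. With the replicate block the median log2 fold change of the markers was -0.02, that of Btg1 0.64 and that of Pdzd2 0.26, and the block changed no call at an adjusted p of 0.05. At an unadjusted p under 0.05, 0 to 3 of 10 markers passed over the alternatives, namely Prox1, Btg1 or Dsp. The count of 3 came from DESeq2 without Snhg11-ASO replicate 3, a fit that keeps Snhg11-ASO replicate 1. In that fit 1936 of the 20362 genes tested had an unadjusted p under 0.05. With 3 samples a group and a biological coefficient of variation of 0.266, none of the differences seen in the markers passed. The chance of detecting differences of this size was not computed, and Tdo2 rests on the fewest counts.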

Other observations

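Read pairs on the strand opposite to Pdzd2 numbered 40, 44 and 39 in replicates 1 to 3 of Control-ASO, whereas replicates 1 to 3 of Snhg11-ASO had 232, 51 and 49. The library with high Pdzd2 counts was thus also the one with high opposite-strand counts, at 3.85% of both strands together in that library. Opposite-strand pairs at Trpc6 numbered 24, 16 and 20 in the Control-ASO samples, whereas the Snhg11-ASO samples had 10, 8 and 17, and relative to the total counts on genes (CPM without TMM factors) every Snhg11-ASO value (0.191 to 0.386) lay below every Control-ASO value (0.467 to 0.829). Trpc6 was the only 1 of the 10 markers with such a separation on the opposite strand, and it was singled out after all 10 were read. The share of all genes with one was not computed, and 3 mice against 3 allow no exact permutation p below 0.1. These opposite-strand counts are small and were not tested. No annotated exon on the opposite strand overlaps the exons of Pdzd2 or Trpc6.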
